A study of Mus musculus with 15 samples.

Results

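Cholesterol synthesis genes were followed in mammary tumours of female MMTV-PyMT mice. The set has 8 genes, Srebf2, Hmgcs1, Idi1, Fdps, Fdft1, Sqle, Lss and Cyp51, out of 28025 genes or unnamed transcripts tested, of which 16096 have a symbol. Its members were chosen by name, by the transcript identifiers the array design gives for a probe, and not by a cutoff on signal. Earlier results of these data were known when they were chosen. All 8 were on the array, with 10 probes in all, and all 8 passed the filter on dim probes: each was well above background on all 15 arrays. The label under which they were grouped also names cholesterol uptake, but none of the 8 encodes an uptake receptor.

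In the MMTV-PyMT model, the promoter of mouse mammary tumour virus drives the polyoma virus middle T oncogene in the mammary epithelium. Tumours were collected at the end of treatment with nintedanib (n = 4), with B20 (n = 4) or with vehicle (n = 3), and before any treatment (T0, n = 4). Nintedanib, an inhibitor of the receptor kinases for VEGF, FGF and PDGF, was dosed orally at 85 mg per kg daily, and B20, an antibody that binds VEGF, was injected into the peritoneum at 5 mg per kg, 2 times per week, both from 7 weeks of age. T0 replicate 4 carries labels of both vehicle and no treatment, and was kept with T0, as its title has it. The age at collection, the strain background and the composition of the vehicle are not given in the sources used here, nor whether samples of 1 group are different animals. All p-values thus measure the spread between these samples alone, in which technical spread may have a share. Whole dissected tumours were used. The 10 luminal epithelium markers, among them Epcam, Krt8 and Krt18, were well above background on all 15 arrays.

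Cells build cholesterol from acetyl-CoA. HMG-CoA synthase (Hmgcs1) makes the precursor of mevalonate, which is turned into isoprenoid units (Idi1, Fdps) and joined into squalene (Fdft1). Squalene is then oxidised, cyclised and trimmed to cholesterol (Sqle, Lss, Cyp51 and later enzymes). The transcription factor SREBP2, encoded by Srebf2, is held in the endoplasmic reticulum when sterols are plentiful. When sterols run low it is cut free and switches on these genes together with genes of cholesterol uptake, through sterol regulatory elements in their promoters.

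To show what such a control region looks like, 3 promoters of members are printed here, each a RefSeq window of 300 bases around the annotated start of the gene (GRCm38.p6). Capitals mark the core of the sterol regulatory element (TCACNCCA, or TGGNGTGA on the opposite strand) and the CCAAT box (CCAAT or ATTGG), which binds the factor NF-Y. Hmgcs1 and Srebf2 are shown because their windows hold a match to these sterol core letters, and Cyp51 because its window holds none. Sterol regulatory elements that depart from these letters were not searched for, so a window without a match may still hold one.
Hmgcs1, chr13:119690101-119690400, + strand: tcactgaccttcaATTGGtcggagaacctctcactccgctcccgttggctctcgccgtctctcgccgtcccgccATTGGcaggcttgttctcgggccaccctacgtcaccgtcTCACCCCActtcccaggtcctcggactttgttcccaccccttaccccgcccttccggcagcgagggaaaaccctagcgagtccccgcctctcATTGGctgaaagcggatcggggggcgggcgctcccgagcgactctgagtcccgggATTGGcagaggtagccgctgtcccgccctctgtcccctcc
Srebf2, chr15:82147019-82147318, + strand: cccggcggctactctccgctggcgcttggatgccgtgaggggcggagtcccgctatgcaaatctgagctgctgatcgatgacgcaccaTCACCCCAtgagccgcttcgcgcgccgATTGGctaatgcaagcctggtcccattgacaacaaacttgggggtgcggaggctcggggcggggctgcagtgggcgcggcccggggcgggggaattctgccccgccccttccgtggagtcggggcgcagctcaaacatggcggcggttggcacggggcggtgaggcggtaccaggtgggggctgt
Cyp51, chr5:4104648-4104947, - strand: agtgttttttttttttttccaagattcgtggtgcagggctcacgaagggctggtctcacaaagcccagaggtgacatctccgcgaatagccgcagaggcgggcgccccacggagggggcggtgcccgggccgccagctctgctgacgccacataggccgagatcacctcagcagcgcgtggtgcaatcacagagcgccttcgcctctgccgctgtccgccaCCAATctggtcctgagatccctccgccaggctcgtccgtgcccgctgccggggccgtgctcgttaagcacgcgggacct
The table of promoters held 5 of the 8 members (also Lss and Idi1). The sterol core, as TCACCCCA, began at base -137 from the start site in Hmgcs1 and at base -162 in Srebf2, and did not overlap a CCAAT box in either. It stood on either strand in 2 of the 5 members' windows, against 4.36% of all 32851 mouse promoters of that length. A CCAAT box was in 5 of 5 windows (37.4% of all promoters), 4 times in that of Hmgcs1, and a GC box (GGGCGG or CCGCCC) was also in 5 of 5 (35.7% of all promoters). These are matches of letters and were not tested as binding sites.

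Each level is the log2 signal of a gene's probe minus the 75th percentile of the array it was read on, so 0 is the brightness below which 75% of the probes of that array lie. Levels are compared between arrays for the same gene and not between genes. Between 53.4% and 68.1% of probes were well above background on 14 arrays, against 84.1% on T0 replicate 3. The arrays lay on 4 slides. Nintedanib, B20 and vehicle tumours shared a slide of 8 arrays and a slide of 3 arrays, and T0 replicates 1 and 2 and T0 replicates 3 and 4 lay on slides of their own. T0 arrays shared no slide, scan day or protocol version (as named in the file headers) with the others. A difference from T0 thus cannot be told apart from one between slides, scans or protocol versions. Adipocyte markers set T0 apart as well: the mean of the 10 markers, each centred on its mean over arrays, ran from -1.83 to 1.23 in nintedanib tumours, -1.56 to 0.55 in B20 tumours, -3.56 to -1.44 in vehicle tumours and 1.57 to 3.80 in T0 tumours. Of the 10 markers, 9 were well above background on all arrays, with Lep on 10 of them.

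**Figure D1:**
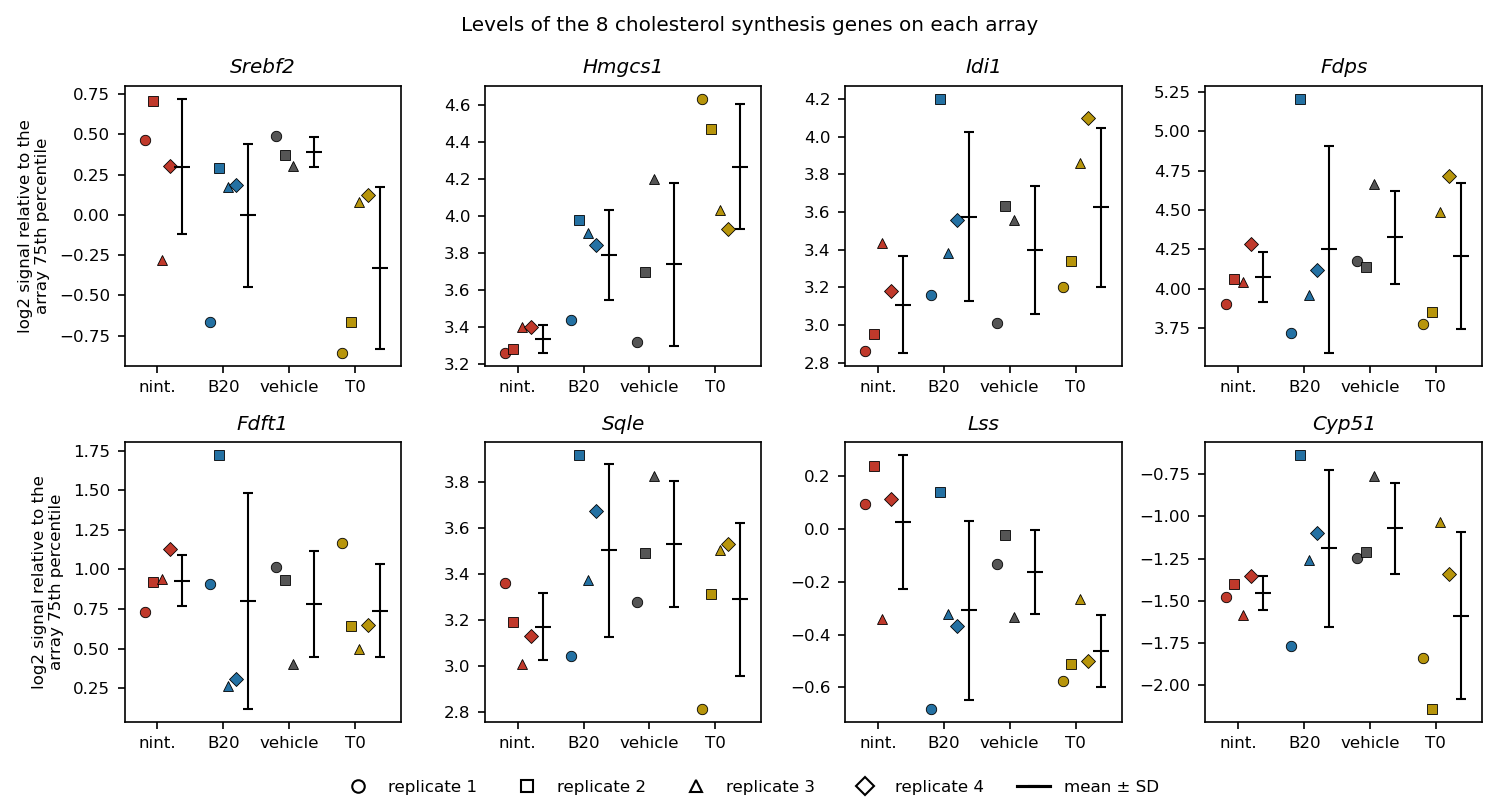
Levels of the 8 genes on each array (y axis, log2 signal relative to the 75th percentile of the array), with a marker for each replicate and bars for the mean ± SD of the group; the y axes differ between panels. Hmgcs1 is lowest in the nintedanib tumours, whose 4 arrays lie between 3.26 and 3.40, and B20 replicate 2 is the highest B20 array in every panel.

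The set as a whole did not separate the groups. Of 48 tests, 8 genes in 6 comparisons, 1 passed at an adjusted p under 0.05 with limma. An unadjusted p under 0.05 was found in 6, all against T0: 2 of 8 for vehicle, 3 for nintedanib and 1 for B20. Of all genes, 21.3%, 28.2% and 26.1% reached it in the same comparisons, so these counts are near the share of all genes. The gene that passed was Hmgcs1, which encodes the enzyme that condenses acetyl-CoA units into HMG-CoA. It was lower in nintedanib tumours than in T0 tumours. In whole tumours, fewer cells that express a gene and less of its RNA per cell cannot be told apart.

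Hmgcs1 levels were 3.26, 3.28, 3.40 and 3.40 in nintedanib tumours, 3.44, 3.98, 3.91 and 3.84 in B20 tumours, 3.32, 3.70 and 4.20 in vehicle tumours, and 4.64, 4.47, 4.03 and 3.93 in T0 tumours. Every nintedanib array lay below every B20 array and below every T0 array, while the vehicle arrays spanned from the nintedanib range into the T0 range. The mean was 3.33 ± 0.07 with nintedanib (SD, n = 4) and 4.27 ± 0.34 at T0 (SD, n = 4), a difference of -0.93 ± 0.21 (SE) or 0.524-fold (limma adjusted p = 0.0155, 95% interval -1.39 to -0.48). It passed under 25 of 26 other settings, with the exception of scaling by the array median (-0.96, adjusted p = 0.105). Some of these settings left out an array of another group or changed the choice of probes, and the difference stayed at -0.93. Without T0 replicate 1, T0 replicate 2 or nintedanib replicate 1 the call was near the threshold (limma adjusted p = 0.0484, 0.0448 and 0.0453). Against T0, B20 tumours differed by -0.48 ± 0.21 and vehicle tumours by -0.53 ± 0.23 (limma adjusted p = 0.173 and 0.202). These comparisons use the same 4 T0 arrays. With nintedanib, Hmgcs1 was -0.46 ± 0.21 from B20 and -0.41 ± 0.23 from vehicle, and neither passed (limma adjusted p = 0.532 and 0.999). On the slide with 8 arrays these differences were -0.46 and -0.20, and on the one with 3 they were -0.44 and -0.80.

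Other lists also differed between nintedanib and T0 tumours. Adipocyte markers were lower in nintedanib tumours than at T0, with a list median of -3.34, and 9 of 10 passed. Skeletal muscle markers had a median of -2.75 in the same comparison, and 0 of 10 passed with limma (1 at an unadjusted p under 0.05). Endothelium markers were lower in 10 of 10 (median -0.80, 3 called) and fibroblast markers in 8 of 8 (median -0.82, 2 called), beside 11.4% of all genes called. Their means, each gene centred, ran from -0.43 to 0.19 and -0.65 to 0.06 in nintedanib tumours, against 0.34 to 1.41 and 0.15 to 0.97 in T0 tumours, and every marker of both lists was well above background on all 15 arrays. Among T0 arrays, Hmgcs1 was higher on replicates 1 and 2 than on replicates 3 and 4, and so were the adipocyte means (3.80 and 3.41 against 1.99 and 1.57), the endothelium means (1.41 and 0.98 against 0.34 and 0.36) and the fibroblast means (0.97 and 0.71 against 0.32 and 0.15). Replicates 1 and 2 also lay on a different slide from replicates 3 and 4, so this split and a difference between slides cannot be told apart. The part of the cells these markers stand for in the Hmgcs1 difference was not tested.

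The next 2 genes, downstream of mevalonate, supply the isoprenoid units. Idi1 encodes the isomerase that interconverts the basic isoprenoid building blocks. Its levels were 2.86, 2.95, 3.44 and 3.18 in nintedanib tumours, 3.16, 4.20, 3.38 and 3.56 in B20 tumours, 3.01, 3.63 and 3.56 in vehicle tumours, and 3.20, 3.34, 3.86 and 4.10 in T0 tumours. The nintedanib mean was the lowest of the 4 groups, but its arrays overlapped every other group. Idi1 differed by -0.52 ± 0.26 between nintedanib and T0 and by -0.47 ± 0.26 between nintedanib and B20 (limma adjusted p = 0.215 and 0.593).

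Fdps encodes farnesyl diphosphate synthase, whose product feeds squalene, dolichol, ubiquinone and protein prenylation. Fdps levels were 3.90, 4.06, 4.04 and 4.29 in nintedanib tumours, 3.72, 5.21, 3.96 and 4.12 in B20 tumours, 4.17, 4.14 and 4.67 in vehicle tumours, and 3.78, 3.85, 4.48 and 4.71 in T0 tumours. The groups overlapped, and B20 replicate 2 alone stood above 5. Its 6 differences ran from nintedanib minus vehicle (-0.25 ± 0.33) to vehicle minus T0 (0.12 ± 0.33), and the SD within groups, 0.446, was larger than the SD of the group means, 0.106.

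Fdft1 encodes squalene synthase, which makes the first molecule committed to sterols. Its levels were 0.73, 0.92, 0.94 and 1.13 in nintedanib tumours, 0.91, 1.72, 0.26 and 0.31 in B20 tumours, 1.01, 0.93 and 0.40 in vehicle tumours, and 1.17, 0.64, 0.50 and 0.65 in T0 tumours. The B20 arrays alone covered the whole range seen in the series. The fitted differences lay between 0.02 and 0.19, and none passed. A second, dimmer Fdft1 probe, well above background on 10 of 15 arrays, did not follow the first (r = -0.46 over the 15 arrays) and gave a nintedanib minus T0 difference of -0.56 where the first gave 0.19, so the 2 probes disagree in sign there.

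The last 3 enzymes make and trim the sterol rings. Sqle encodes squalene epoxidase, a rate-controlling step of the late pathway. It measured 3.36, 3.19, 3.01 and 3.13 in nintedanib tumours, 3.05, 3.92, 3.37 and 3.68 in B20 tumours, 3.28, 3.49 and 3.83 in vehicle tumours, and 2.81, 3.31, 3.51 and 3.53 in T0 tumours. The nintedanib arrays sat in the lower part of the range and overlapped the other 3 groups. Sqle differed by -0.36 ± 0.23 between nintedanib and vehicle and by -0.33 ± 0.22 between nintedanib and B20 (limma adjusted p = 0.999 and 0.658).

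Lss encodes lanosterol synthase, which closes the rings. Lss levels were 0.09, 0.24, -0.34 and 0.11 in nintedanib tumours, -0.68, 0.14, -0.32 and -0.37 in B20 tumours, -0.13, -0.02 and -0.33 in vehicle tumours, and -0.57, -0.51, -0.26 and -0.50 in T0 tumours. All but nintedanib replicate 3 were higher with nintedanib than at T0, the reverse of Hmgcs1. The difference was 0.49 ± 0.19 (unadjusted p = 0.0202 with limma, adjusted p = 0.103) and did not pass.

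Cyp51 encodes lanosterol demethylase, the first enzyme after ring closure. Its levels were -1.48, -1.40, -1.58 and -1.36 in nintedanib tumours, -1.77, -0.64, -1.26 and -1.10 in B20 tumours, -1.25, -1.21 and -0.76 in vehicle tumours, and -1.84, -2.14, -1.03 and -1.34 in T0 tumours. Each nintedanib array lay below each vehicle array. The difference was -0.38 ± 0.28, did not pass (limma adjusted p = 0.999), and measured -0.26 on the slide with 8 arrays and -0.60 on the one with 3.

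Srebf2, the gene of the regulator itself, measured 0.47, 0.71, -0.28 and 0.31 in nintedanib tumours, -0.67, 0.29, 0.17 and 0.18 in B20 tumours, 0.49, 0.37 and 0.30 in vehicle tumours, and -0.86, -0.66, 0.08 and 0.12 in T0 tumours. On this probe, the brighter of 2, the 3 vehicle arrays stood above all B20 and all T0 arrays. Within T0 the split followed the slides, with replicates 1 and 2 low and replicates 3 and 4 high. Vehicle minus T0 was 0.72 ± 0.31 and nintedanib minus T0 was 0.63 ± 0.29 (limma adjusted p = 0.196 and 0.167). B20 minus vehicle was -0.39 ± 0.31 (limma adjusted p = 0.998). Neither this nor the other Srebf2 differences passed. A second Srebf2 probe followed the first in part (r = 0.52 over the 15 arrays) and gave 0.56 for nintedanib minus vehicle, where the first probe gave -0.09. It gave 0.15 for vehicle minus T0 and 0.02 for B20 minus vehicle, where the first gave 0.72 and -0.39. Its vehicle levels, -1.97, -1.70 and -2.44, overlapped those of B20 and T0 tumours.

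Against vehicle, the tests of drug effect had little to show for this pathway. In nintedanib minus vehicle, 6 of the 8 genes were lower and the median difference was -0.27, beside -0.01 over all genes. It was -0.15 without vehicle replicate 3 and -0.40 without vehicle replicate 1. The 10 cell cycle genes were lower in 10 of 10 in this comparison (median -0.54, 4 at an unadjusted p under 0.05, 0 passed with limma), with means of -0.37 to -0.02 in nintedanib tumours and 0.27 to 0.39 in vehicle tumours, each gene centred over arrays. All were well above background on every array, and their part in the result was not tested. None of the 8 passed with limma, as 0% of all genes did (1353 genes at an unadjusted p under 0.05), and the 95% intervals reached from -0.99 to 0.82. Of the 8, 1 had groups without overlap (Cyp51, lower), beside 7.36% of all genes. In B20 minus vehicle, 5 of 8 were lower, the median was -0.05 beside 0.04 over all genes, and 0 of 8 passed with limma beside 0% of all genes (911 at an unadjusted p under 0.05). The median was -0.29 without B20 replicate 2 and 0.09 without B20 replicate 1. Cell cycle genes were lower in 10 of 10 here too (median -0.42, 1 at an unadjusted p under 0.05, 0 passed). The intervals reached from -1.06 to 0.79, and 1 of 8 genes did not overlap (Srebf2, lower, on its brighter probe only), beside 5.4% of all genes.

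Set directly against each other, nintedanib and B20 gave a median of -0.22 over the 8 genes, beside -0.04 over all genes, with 5 of 8 lower with nintedanib. None passed with limma, as 0% of all genes did (2630 at an unadjusted p under 0.05), and the lowest adjusted p was 0.532, for Hmgcs1. Hmgcs1 was also the 1 gene of 8 whose groups did not overlap, beside 5.73% of all genes. Without B20 replicate 2 the median turned to 0.03, and without B20 replicate 1 it became -0.41.

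Relative to T0, the 8 genes moved in both directions. Vehicle minus T0 had a median of 0.18 over the 8 genes, beside 0.04 over all genes, with 0 of 8 called, beside 4.93%. In it 1 of 8 genes did not overlap (Srebf2, higher, on its brighter probe only), beside 16.7% of all genes. Nintedanib minus T0 had a median of 0.01, beside 0.01 over all genes (-0.11 without T0 replicate 1 and 0.10 without T0 replicate 4), with 1 of 8 called (Hmgcs1), beside 11.4%, and the same gene not overlapping, beside 16.8%. B20 minus T0 had a median of 0.11, beside 0.08 over all genes (-0.12 without B20 replicate 2 and 0.25 without B20 replicate 1), with 0 of 8 called, beside 9.52%, and 0 of 8 not overlapping, beside 15.5%. The members' counts were near or below the share of all genes in each of these comparisons.

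**Figure D2:**
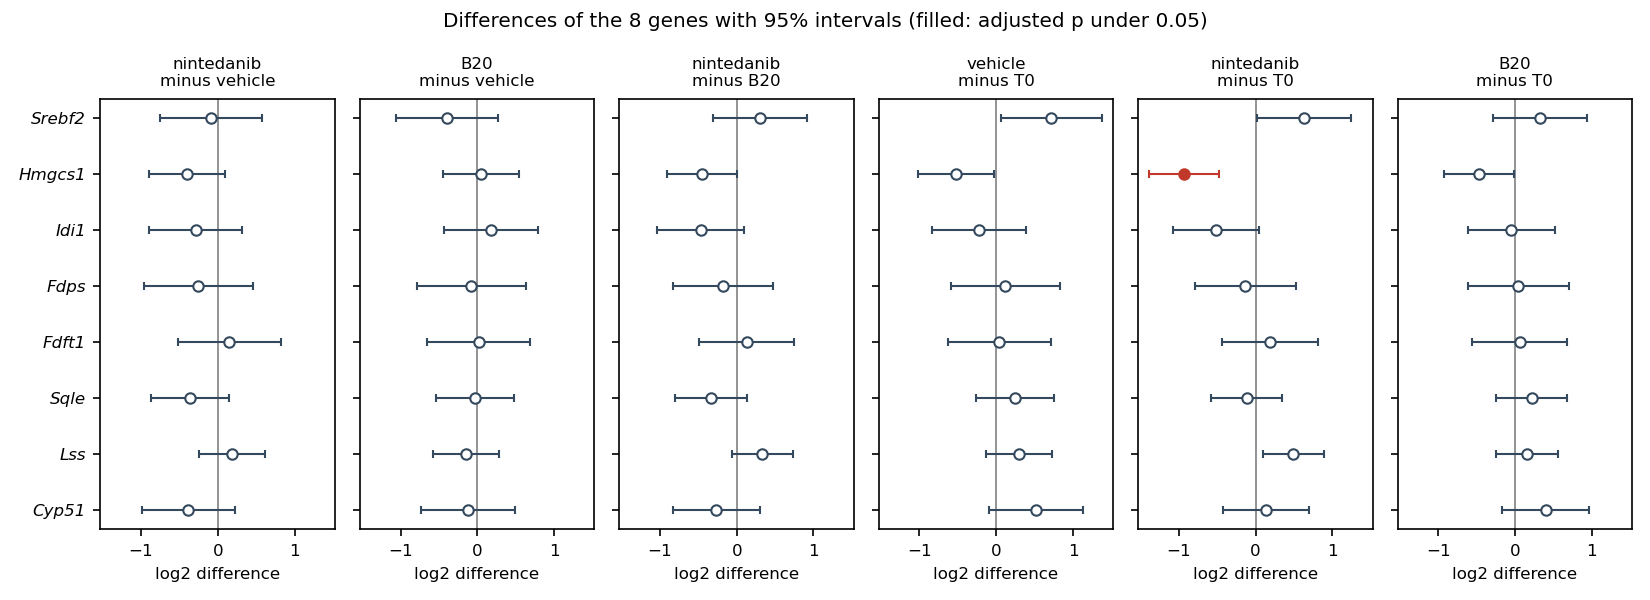
Fitted log2 differences of the 8 genes in the 6 comparisons (x axis) with 95% intervals; filled symbols passed at an adjusted p under 0.05. Hmgcs1 in nintedanib minus T0 (-0.93) is the filled point, and in the 3 comparisons without T0 the intervals of all 8 genes reach 0.

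For 7 of the 8 genes, Hmgcs1 being the exception, the SD within groups was larger than the SD of the group means. Single B20 arrays had a share in that spread, and so did a split within T0. B20 replicate 2 was the highest of the B20 arrays for 8 of 8 members, while it was the highest for 34.2% of all genes. It exceeded its group mean by 0.96 for Fdps, 0.92 for Fdft1, 0.63 for Idi1, 0.55 for Cyp51, 0.45 for Lss, 0.42 for Sqle, 0.30 for Srebf2 and 0.19 for Hmgcs1. B20 replicate 1 was the lowest of its group for 7 of 8 members, Fdft1 being the exception, against 23.6% of all genes. Over the 8 genes, each centred on its mean, B20 replicate 2 had the highest array mean of the series (0.59) and B20 replicate 1 the lowest (-0.37). Both arrays lay on the slide of 8. Within T0, replicates 1 and 2 lay below replicates 3 and 4 for Srebf2, Idi1, Fdps, Sqle, Cyp51 and Lss. Hmgcs1 went the other way, and Fdft1 did not split so. The T0 array means over the 8 genes were -0.22 and -0.22 for replicates 1 and 2, against 0.13 and 0.14. These pairs lay on different slides, so the split and a difference between slides cannot be told apart.

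The other enzymes of the pathway, a list of 14 that includes Mvd, Msmo1, Ebp and Sc5d, ordered the arrays alike at both ends. B20 replicate 2 was above its group mean for 14 of 14 of them and highest of its group for 11, and B20 replicate 1 was below its group mean for 14 of 14 and lowest for 10. Over the 15 arrays the mean of the 8 genes and that of the 14 had r = 0.88 (Spearman 0.88) and r = 0.96 with group means removed. It was r = 0.76 without the 2 arrays farthest from the median of the 14, and r = 0.67 without B20 replicates 1 and 2. Both means come from the same arrays and the same scaling. The mean of the 8 genes had r = -0.06 with the array's own 75th percentile. With the percentage of probes well above background, the mean of the 8 genes had r = -0.05 (Spearman -0.30). This became r = -0.42 without T0 replicate 3 and nintedanib replicate 2, the 2 arrays farthest from the median percentage. The part of these array measures in the pattern was not tested.

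The 2 extreme B20 arrays also differed in markers of other cells. The mean of the 10 skeletal muscle markers, each centred over arrays, was 4.24 on B20 replicate 1, -1.49 on replicate 2, 0.80 on replicate 3 and -2.31 on replicate 4. Mylpf was the muscle marker well above background on the fewest arrays, 8 of 15. Neutrophil markers, 5 genes, had a mean of 1.57 on B20 replicate 2 and of 0.06 to 0.43 on the other B20 arrays. Over all 15 arrays the muscle mean had r = -0.60 with the mean of the 8 genes (-0.38 without the 2 arrays farthest from its median). The mean of 10 cell cycle genes had r = 0.61 (0.57 without its 2 farthest). The neutrophil mean had r = 0.34, Spearman 0.08, and r = -0.36 without its 2 farthest. Without B20 replicates 1 and 2 the muscle, cell cycle and neutrophil values were -0.59, 0.78 and -0.09. The part of these cells in the array pattern was not tested.

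**Figure D3:**
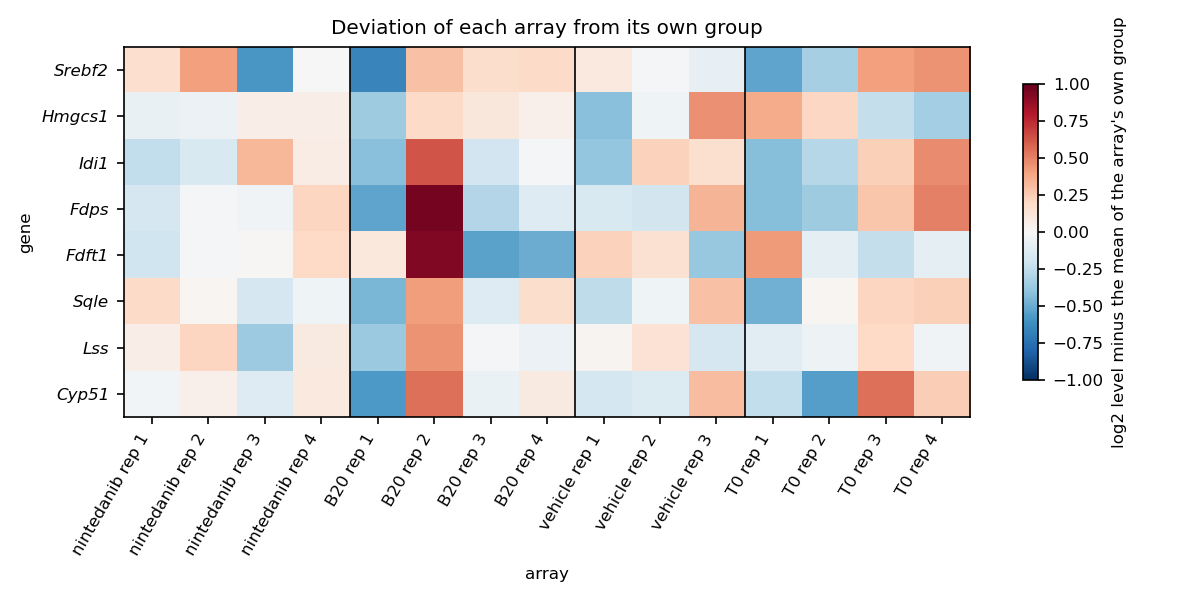
Each array's deviation from its own group mean (colour, log2; red higher, blue lower) for the 8 genes in rows, with arrays in columns by group. The column of B20 replicate 2 is above its group mean for 8 of 8 genes, and that of B20 replicate 1 is below it for 7 of 8.

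Members did not all follow each other. Over the 28 pairs of members the median r across 15 arrays was 0.30, with 21 pairs positive, and it was 0.13 without B20 replicate 2. Cyp51, Fdps and Sqle formed the closest group, with r = 0.80 for Cyp51 and Fdps, 0.79 for Sqle and Cyp51 and 0.76 for Sqle and Fdps, and Srebf2 and Lss had r = 0.81. Hmgcs1 had r = -0.55 with Srebf2 and -0.53 with Lss, and 0.43 with Idi1. With group means removed these became -0.26, 0.00 and 0.08. Fdft1 had r = -0.17 with Sqle, 0.03 with Cyp51 and 0.06 with Idi1, and without B20 replicate 2 these became -0.77, -0.46 and -0.46.

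Among 16088 genes with a symbol outside the set, those most like the mean of the 8 over the 15 arrays were Mvd (r = 0.86), Msmo1 (0.85), Tubb5 (0.85), Nudt3 (0.82) and Puf60 (0.81). Mvd encodes the mevalonate diphosphate decarboxylase upstream of Idi1, and Msmo1 the methylsterol monooxygenase that acts after Cyp51. Tubb5 encodes a beta tubulin and Puf60 a splicing factor. Without B20 replicate 2 these 5 values were 0.75, 0.66, 0.79, 0.67 and 0.70. Stard4, a carrier that moves sterols between membranes, ranked 19 (r = 0.76). Other enzymes of the pathway followed the mean of the 8 less closely. Over the list of 14, r ran from 0.07 to 0.86, with Ebp at 0.34 (rank 3896) and Sc5d at 0.34 (rank 4036).

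Insig1, which retains SREBP in the endoplasmic reticulum, and Srebf1, the gene of the SREBP that drives fatty acid synthesis, were looked at in every comparison. Insig1 measured -0.96, -1.52, -1.31 and -0.83 in nintedanib tumours, -1.19, -0.44, -0.82 and -0.91 in B20 tumours, -1.19, -0.92 and -0.60 in vehicle tumours, and -0.26, -1.03, -0.42 and -1.22 in T0 tumours. The groups overlapped in each comparison. Srebf1 measured 2.14 ± 0.54 in nintedanib tumours, 1.99 ± 0.50 in B20 tumours, 2.07 ± 0.44 in vehicle tumours and 1.76 ± 0.33 in T0 tumours (SD, n = 4, 4, 3 and 4). Across the 2 genes and 6 comparisons the 12 differences lay between -0.43 (Insig1, nintedanib minus T0) and 0.38 (Srebf1, nintedanib minus T0), and none passed with limma (lowest adjusted p = 0.289, 0 at an unadjusted p under 0.05).

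Of the 14 other enzymes, 1 passed in 1 comparison, nintedanib minus T0, in which 11.4% of all genes were called. Sc5d, which introduces a double bond late in the pathway, was lower in nintedanib tumours than at T0 (1.94, 1.72, 1.69 and 1.80 against 2.55, 2.18, 2.43 and 2.54; difference -0.64 ± 0.16, limma adjusted p = 0.0255). The groups did not overlap, and the call held under 18 of 26 other settings, and ended without any one of nintedanib replicates 2, 3 and 4 or T0 replicate 1. In vehicle minus T0 it differed by -0.63 ± 0.18 (limma adjusted p = 0.0596). Ebp, a sterol isomerase, measured 5.33, 5.23, 5.53 and 5.63 in nintedanib tumours, against 5.75, 5.94, 5.81 and 5.95 in B20 tumours, without overlap (-0.43 ± 0.16), and did not pass (limma adjusted p = 0.517).

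The 10 genes that control SREBP, among them Scap, Insig1 and the proteases Mbtps1 and Mbtps2, held 0 that passed with limma in any comparison. At an unadjusted p under 0.05 there were 0, 1 and 2 in nintedanib minus vehicle, B20 minus vehicle and nintedanib minus B20. The shares of all genes there were 4.83%, 3.25% and 9.38%. Against T0 there were 1, 4 and 3 in vehicle, nintedanib and B20 tumours, beside 21.3%, 28.2% and 26.1% of all genes.

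Genes of sterol storage and transport passed only in comparisons with T0, and 0% of all genes passed in those without T0. Soat1, which esterifies cholesterol for storage, rose in all 3 end groups: its levels were -2.17, -1.99, -1.99 and -2.05 in nintedanib tumours, -1.93, -1.93, -1.96 and -1.79 in B20 tumours, -1.97, -1.83 and -1.11 in vehicle tumours, and -2.86, -2.54, -3.05 and -2.50 in T0 tumours. No end array overlapped a T0 array, and the differences from T0 were 0.69 ± 0.19, 0.84 ± 0.19 and 1.10 ± 0.20 for nintedanib, B20 and vehicle (limma adjusted p = 0.0328, 0.0184 and 0.011). The calls held under 12, 20 and 22 of 26 other settings, and normexp background correction ended all 3 (0.28, 0.48 and 0.53). Leaving out 1 array ended the nintedanib call for each nintedanib array and for T0 replicates 1 and 3, and the B20 call for B20 replicate 4 and T0 replicate 1.

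Cyp46a1, which turns cholesterol into 24-hydroxycholesterol and is known mainly from neurons, was also higher in each end group, by 1.94 ± 0.40 with nintedanib, 1.95 ± 0.40 with B20 and 1.80 ± 0.43 with vehicle (limma adjusted p = 0.0105, 0.0132 and 0.0319). The call held under 26, 26 and 19 of 26 other settings, and the vehicle call ended without any one of vehicle replicates 2 and 3 or T0 replicates 1 and 2. With normexp background correction the differences were 1.14, 1.18 and 1.02, and the vehicle call was lost (limma adjusted p = 0.0942). Together these 2 were the only genes of 10 on the list of efflux, esterification and oxysterols that passed. Of all genes, 11.4%, 9.52% and 4.93% were called against T0 in nintedanib, B20 and vehicle tumours. Stard3, a carrier of cholesterol at late endosomes, was the 1 gene of 12 on the uptake and trafficking list that passed. It exceeded T0 by 0.95 ± 0.18 in vehicle tumours and by 0.60 ± 0.17 in B20 tumours (limma adjusted p = 0.0127 and 0.0407). It did not pass with nintedanib (0.52 ± 0.17, adjusted p = 0.0608), and these calls held under 23 and 13 of 26 other settings. The vehicle call ended without vehicle replicate 1, and the B20 call without any one of B20 replicates 1, 2 and 4, T0 replicates 1, 2 and 3 or nintedanib replicate 1.

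Of the 7 genes of the isoprenoid branch, 2 fell in nintedanib tumours relative to T0, beside 11.4% of all genes called in either direction. Pdss1 and Pdss2 encode the subunits of the synthase that makes the side chain of ubiquinone. Pdss1 measured -0.74, -0.44, -0.45 and -0.60 in nintedanib tumours, against 0.06, -0.01, 0.39 and 0.23 in T0 tumours (-0.72 ± 0.15, limma adjusted p = 0.0122). No array overlapped. Pdss2 differed by -0.41 ± 0.12 (limma adjusted p = 0.0436), and that call held under 6 of 26 other settings, with 13 of the 15 single arrays ending it when left out (all but vehicle replicate 1 and B20 replicate 2). Against vehicle, Pdss1 differed by -0.49 ± 0.17 with nintedanib and did not pass (limma adjusted p = 0.916).

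Fatty acid synthesis is a neighbouring branch that uses the same acetyl-CoA. Of its 11 genes, 5 fell relative to T0 in nintedanib tumours, 4 in B20 tumours and 4 in vehicle tumours, beside 11.4%, 9.52% and 4.93% of all genes called in either direction, and 0 rose. The shared 4 were Scd1, Fasn, Acaca and Acss2. The other was Acly, which makes cytosolic acetyl-CoA and fell by 1.32 on the log2 scale with nintedanib (limma adjusted p = 0.0167). Scd1, the desaturase that makes oleate, measured 4.21, 4.43, 4.66 and 5.55 in nintedanib tumours, 5.20, 3.82, 4.71 and 3.81 in B20 tumours, 3.60, 3.79 and 3.75 in vehicle tumours, and 7.57, 7.10, 6.78 and 6.09 in T0 tumours. All end arrays lay below all T0 arrays, and the differences from T0 were -2.17, -2.50 and -3.17 for nintedanib, B20 and vehicle (limma adjusted p = 0.00548, 0.00526 and 0.00363).

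Fasn, the fatty acid synthase, differed from T0 by -2.36, -2.54 and -2.83 in nintedanib, B20 and vehicle tumours, and Acaca, the acetyl-CoA carboxylase, by -1.88, -2.11 and -2.05. Acss2, which makes acetyl-CoA from acetate, differed by -1.70, -1.62 and -1.88. Under 26 other settings the calls held for Fasn in 18, 18 and 15, for Acaca in 21, 22 and 8 and for Acss2 in 24, 17 and 19, and for Scd1 in all 26 of each comparison. T0 replicate 2 was among the single arrays whose omission ended 8 of these 9 calls of Fasn, Acaca and Acss2, the exception being Acss2 with nintedanib, which ended without nintedanib replicate 1. Without T0 replicate 1 the Acss2 difference in B20 tumours was -1.07. Adipocytes express these enzymes strongly, and adipocyte markers had medians of -3.34, -3.04 and -5.21 in the same 3 comparisons, with 9, 9 and 10 of 10 called lower. T0 replicate 1 had both the highest adipocyte mean (3.80) and the highest Fasn (4.65), and T0 replicate 4 the lowest of T0 on both (1.57 and 0.81). Those 2 arrays lay on different slides. The part of adipocytes in the differences from T0 was not tested. Scd1 was higher with nintedanib than with vehicle on every array (1.00 ± 0.41), which did not pass (limma adjusted p = 0.976), and adipocyte markers were higher by a median of 1.99 in that comparison.

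**Figure D4:**
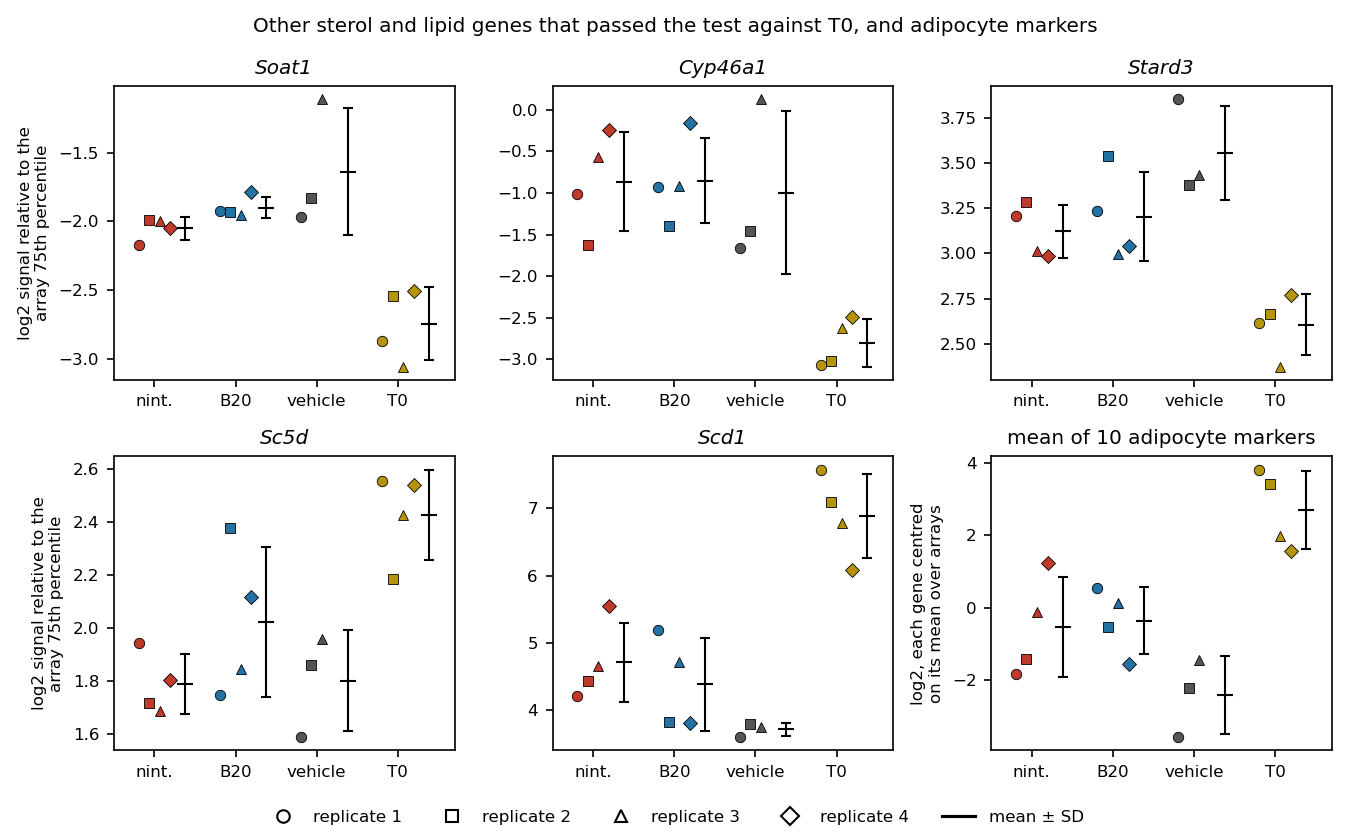
Levels of 5 other sterol and lipid genes on each array (y axis, log2 signal relative to the 75th percentile of the array) and, in the last panel, the mean of 10 adipocyte markers, with a marker for each replicate and bars for the mean ± SD of the group. T0 tumours are lowest for Soat1, Cyp46a1 and Stard3 and highest for Scd1 and for the adipocyte markers (1.57 to 3.80).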

How the data were processed

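Signals came from 15 Agilent 1-colour arrays (Cy3), 1 per tumour sample. Per the file headers, the arrays (design 028005, grid build mm9) were read with Feature Extraction 10.7.3.1, and the spot intensity (processed signal) the authors deposited is background-subtracted and detrended, not normalised between arrays. The other values, per the file headers, are flags of 0 or 1 for spots above background, saturated or outlying. The log2 table the authors deposited for the whole series served as an alternative; its making is not stated in the sources used here, and normexp with quantile normalisation gave nearly the same values (lowest r over arrays 0.9996).

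Control and outlier spots were left out, spots of a probe averaged, and the 75th percentile of each array's log2 signal subtracted, with no pseudocount. In 82 cases a probe's mean filled a missing value, none of them in a probe of the 8 genes. Probes well above background on at least 3 arrays were kept, and the brightest probe stood for a gene. Names came from RefSeq genes (GRCm38.p6). Limma 3.58.1 in R 4.3.3 fitted 4 group means to the 15 arrays. Tests were two-sided, adjusted by Benjamini-Hochberg over 28025 genes, and called at an adjusted p under 0.05. The fit was tested on simulated data. Precision is limited by how many arrays there are: a difference of 4 against 3 arrays had a median SE of 0.29, and one of 4 against 4 had 0.269. The normexp alternative used the median spot signal in place of the planned mean signal, which was not among the columns used here.

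The 8 genes and the 17 gene lists were chosen with earlier results of these data known. Named genes were the 8 in every comparison, Insig1 and Srebf1, those of the sterol and lipid lists that passed, some of those with the lowest p where none passed, and the 5 genes most like the mean of the 8. Stard4 was picked after its values were seen. A few other genes of the lists count in the list totals and are not reported here by name. Lists of cell markers are given beside some of the results they moved with.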

Additional observations from a re-analysis of the deposited data

Results flagged for a closer look

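In 81 groups of 4 arrays (27 genes in nintedanib, B20 and T0 tumours), 2 held an array far from the other 3 by Dixon's test, in which chance sets apart about 1 group in 20. Srebf2 on B20 replicate 1 was the lowest of its group at -0.67, with the nearest array at 0.17. Pdss2 on T0 replicate 2 was the lowest of its group at -0.60, with the nearest at -0.42. B20 replicate 1 is also the array with the lowest mean over the 8 genes (-0.37).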

How the results depend on the processing

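The number of arrays sets the limit: with 3 or 4 arrays a group, the 95% intervals of the 8 genes were 0.399 to 0.706 wide on either side in log2. The medians over the 8 genes moved by less than the spread between replicates (SD 0.246) under every other setting run, save for the nintedanib minus B20 median without B20 replicate 2. That SD is larger than most of the medians, so a median can change sign within it. In B20 minus vehicle the median was -0.05, and 0.09 without B20 replicate 1. Hmgcs1 in nintedanib minus T0 lost its call under 1 of 26 other settings, scaling by the array median (-0.96, adjusted p = 0.105). Some of the 26 could not move its difference, as they left out arrays of other groups or changed the choice of probes. The cause of the changes below was not tested.

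The replicate numbers were not taken as pairs: arrays of the same number had correlations of their deviations from -0.25 to 0.38 (means 0.01, 0.01, -0.03 and 0.05 for numbers 1 to 4). With a replicate block, 1225, 2636 and 2080 genes were called against T0 for vehicle, nintedanib and B20, Hmgcs1 kept its call (adjusted p = 0.0319), and Fdft1 in vehicle minus T0 turned to -0.0015.

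In vehicle minus T0, 1382 genes were called, against 680 with median scaling, 894 with no filter on dim probes, 875 with slide as a random block, 5274 with array weights and 17 with the arrays of those groups alone. In nintedanib minus T0, 3208 were called, against 1366 with median scaling, 2023 with the random block, 7919 with array weights and 1458 with those groups alone. In B20 minus T0, 2668 were called, against 1599 with normexp, 1186 with median scaling, 1540 with the random block, 6059 with array weights and 986 with those groups alone. Nintedanib minus vehicle gave 12 with array weights, and nintedanib minus B20 gave 1 with those groups alone. Array weights also called Srebf2, Hmgcs1 and Cyp51 in vehicle minus T0 (1.00, -0.75 and 0.82), Srebf2 and Lss in nintedanib minus T0 (0.98 and 0.58) and Hmgcs1 in B20 minus T0 (-0.70). With normexp the median of all genes in nintedanib minus B20 was -0.16, against -0.04 as reported, and that of the 8 genes was -0.17, against -0.22.

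Differences near 0 changed sign. In B20 minus vehicle, Fdft1 was -0.0036 with quantile normalisation, -0.029 with median scaling, -0.0042 with the authors' values, -0.074 with the mean of its probes, -0.0081 with slide as a fixed block, -0.0084 on the slide of 8 arrays and -0.18 with array weights. On that slide, Sqle was 0.061, Cyp51 0.0073 and Fdps 0.14, and Idi1 was -0.0053 with array weights. In nintedanib minus vehicle, Srebf2 was 0.23 with the mean of its probes and Fdft1 -0.11 on the slide of 8. In nintedanib minus B20, Fdft1 was -0.10 on that slide and Fdps 0.016 with array weights. The mean of its probes turned Fdft1 to -0.19 in vehicle minus T0, -0.19 in nintedanib minus T0 and -0.26 in B20 minus T0. Array weights turned Idi1 to 0.060 in vehicle minus T0 and 0.055 in B20 minus T0, Fdps to 0.15 in nintedanib minus T0, and Fdft1 to -0.071 in B20 minus T0.

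Leaving out each array in turn gave 480 to 2097 calls in vehicle minus T0 (lowest without vehicle replicate 3, highest without T0 replicate 4), with moves of over 1.5 times also without T0 replicates 1 and 2 and vehicle replicates 1 and 2. It gave 1610 to 3913 in nintedanib minus T0 (lowest without nintedanib replicate 1; T0 replicates 1 and 2 also moved it) and 919 to 3305 in B20 minus T0 (lowest without B20 replicate 4; B20 replicate 2 and T0 replicates 1 and 2 also moved it). Nintedanib minus vehicle gave 0 to 2 and nintedanib minus B20 0 to 1, and the median over the 8 genes in the last ran from -0.41 to 0.030. In B20 minus vehicle, Sqle ran from -0.17 to 0.12, Cyp51 from -0.30 to 0.075, Fdps from -0.39 to 0.10, Fdft1 from -0.29 to 0.20, Hmgcs1 from -0.16 to 0.28 and Idi1 from -0.031 to 0.32. In nintedanib minus vehicle, Srebf2 ran from -0.23 to 0.10 and Fdft1 from -0.044 to 0.26, and in nintedanib minus B20, Fdps from -0.35 to 0.14 and Fdft1 from -0.050 to 0.44. In vehicle minus T0, Fdps ran from -0.050 to 0.29 and Fdft1 from -0.075 to 0.23. In nintedanib minus T0, Cyp51 ran from -0.052 to 0.32 and Fdps from -0.28 to 0.035. In B20 minus T0, Idi1 ran from -0.26 to 0.11, Fdps from -0.27 to 0.22 and Fdft1 from -0.25 to 0.24.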
